A study of Tachysurus fulvidraco x Tachysurus vachelli with 6 samples.

Results

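The genes described here are the protein and lipid kinase genes in a deposited gene table of hybrid yellow catfish skin. They were chosen by the word "kinase" in the gene description that the deposited table carries. The word was found in 85 of 2451 genes. Of these, 16 were left out because their descriptions name a myosin light chain, creatine, rho-associated or mitochondrial kinase, a kinase inhibitor, an anchor protein or a related term, or because the gene was chuk or tab1. The remaining 69 genes lay on 27 scaffolds, and 36 of them carry only a LOC number as a name.

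Skin was taken from juveniles of the cross Tachysurus fulvidraco♀ × P. vachellii♂, and poly(A) RNA was sequenced. The transport group (3 libraries) had been held for 16 h in sealed, oxygen-filled bags on a shaker that simulates road transport, after a period without feed. The control group (3 libraries) came from the recirculating system in which the fish had been kept. The skin lay on the left side behind the dorsal fin. No source used here says if a library was made from 1 fish or from several. The p-values therefore rest on the spread between these libraries, which may not be the spread between fish.

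Kinases transfer a phosphate group from ATP to another molecule. Protein kinases mark serine, threonine or tyrosine residues and so switch other proteins on or off, lipid kinases make membrane messengers, and small-molecule kinases feed nucleotide and sugar metabolism. In epithelia such as fish skin, kinase cascades carry signals of osmotic change, injury and microbial contact, and many of their steps are set by phosphorylation rather than by transcript level.

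The word rule also takes in genes that are not kinases. The gene plau encodes urokinase-type plasminogen activator, a protease, and skp2 encodes an F-box protein of a ubiquitin ligase. The genes madd, stk11ip and the JIP1-like LOC113635657 encode partner or scaffold proteins of kinases, mlkl encodes a pseudokinase, and pik3r5, csnk2b and phkb encode regulatory subunits. The gene LOC113634794 is described as an immunoglobulin heavy variable segment joined to protein kinase C alpha, after another fish. A stricter list, called enzyme descriptions only, dropped descriptions with words such as interacting, associated, activator or regulatory subunit. It left 56 genes, of which 42 could be tested, and it still holds madd and mlkl. The words that define that stricter list also remove true kinases, such as the receptor-interacting kinases.

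Values are given as FPKM, a read level scaled for transcript length and for sequencing depth. A gene was tested when its mean over the 6 libraries was at least 0.5 FPKM, which 53 of the 69 kinase genes and 1620 of the 2451 genes of the table reached. The least abundant kinase gene inside that limit was the MAGI2-like LOC113635701, with a mean of 0.621 FPKM, and the first one outside it was prkca, with 0.321 FPKM. The reads assigned to the genes of the table came to between 3726582 and 4487002 in the transport libraries and between 3632651 and 4430981 in the control libraries. The kinase genes took 107601, 100151 and 120594 of these reads in transport replicates 1 to 3, against 89120, 91449 and 111143 in control replicates 1 to 3. The study states many more mapped reads per library, so the table covers only a part of them. All genes here means all genes of this table.

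Control replicate 1 stood apart. Its TMM factor, the scaling that edgeR derives from the bulk of the genes, was 0.712, against 1.17, 1.05 and 1.13 in the transport libraries and 0.968 and 1.04 in the other control libraries. It also held the lowest FPKM of the 6 libraries for 43 of the 53 tested kinase genes (81.1%), and for 63.2% of all tested genes. The fitted fold changes use the TMM factors, which lowered the median log2 fold change of all genes by 0.30, so a value near 0 means a gene that moved with the bulk of the table. With TMM factors 24 kinase genes had a positive log2 fold change, and with mapped reads alone 40 did. The 16 genes in between therefore have no direction that holds under both scalings.

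Some tissue markers differed between the groups. The list of keratinocyte and epidermis markers had 1 gene in the table, envoplakin (evpl), a scaffold protein of the epidermal cell envelope in mammals, at 47.7, 30.4 and 41.7 FPKM in the transport libraries against 3.93, 11.9 and 19.7 FPKM in the control libraries. The groups do not overlap, and control replicate 1 was lowest. The 3 skeletal muscle genes summed to 1913, 3183 and 2419 FPKM in the transport libraries, against 9261, 3292 and 1528 FPKM in the control libraries. That sum is carried by a myosin light chain gene, LOC113636033, at 9075 FPKM in control replicate 1. The troponin I genes differed in that library. LOC113635612 was lowest there, but control replicate 3 was nearly as low. LOC113635978 had 136, 191 and 10.8 FPKM in control replicates 1 to 3. Under transport it had 65.9, 139 and 85.9 FPKM. Of the 3 muscle genes, 0 passed an unadjusted p under 0.05. The 2 mucous cell genes summed to 181, 97.5 and 154 FPKM under transport and to 61.2, 88.8 and 204 FPKM in the control, nearly all of it agr2. The mucin-2-like LOC113635236 alone had 8.59, 0.347 and 5.66 FPKM under transport against 0.0384, 0 and 0.0223 FPKM in the control, without overlap. Of the 2 pigment cell genes, tyrp1 passed the unadjusted threshold and mlph did not, and they summed to 1.55, 3.22 and 2.14 FPKM under transport and to 7.98, 7.13 and 3.61 FPKM in the control. The lists for leukocytes, dermal fibroblasts and erythrocytes had 0 genes in the table used here. The part of tissue make-up in the results that follow was not tested, and in a bulk sample fewer cells of a type and less RNA per cell cannot be told apart.

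The kinase genes as a set moved about as often as the other genes of the table. By the quasi-likelihood test of edgeR, adjusted after Benjamini-Hochberg over all tested genes, 0 of the 53 kinase genes had an adjusted p under 0.05, against 0.617% of all genes (10 of 1620), and the smallest adjusted p of a kinase gene was 0.0525. At an unadjusted p under 0.05, 5 kinase genes were higher and 4 were lower in the transport group, together 17.0% of those tested, against 16.9% of all genes (7.72% higher and 9.14% lower). With mapped reads alone in place of TMM factors the split was 8 higher and 3 lower (15.1% and 5.66%), against 13.9% and 4.07% of all genes. DESeq2 gave 3 higher and 3 lower kinase genes at an adjusted p under 0.05 (11.3%), against 9.51% of all genes, and limma on log2 FPKM gave 0, against 0.741%.

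In FPKM, the 3 transport libraries lay wholly above the 3 control libraries for 11 kinase genes and wholly below them for 3, together 26.4%, against 27.8% of all genes (24.1% above and 3.7% below). After TMM scaling the counts were 8 above and 7 below (28.3%), against 23.9%. Group means of FPKM that differed by 1 or more on the log2 scale, together with an unadjusted p under 0.05, took 5 kinase genes (4 higher and 1 lower, 9.43%), against 8.09% of all genes. The study also set a minimum FPKM, which was not applied here. With edgeR's log2 fold change in place of the ratio, 0 kinase genes were higher and 3 were lower (5.66%), against 7.84% of all genes (2.78% higher and 5.06% lower). The median log2 fold change was -0.06 over the kinase genes and -0.02 over all genes.

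**Figure D1:**
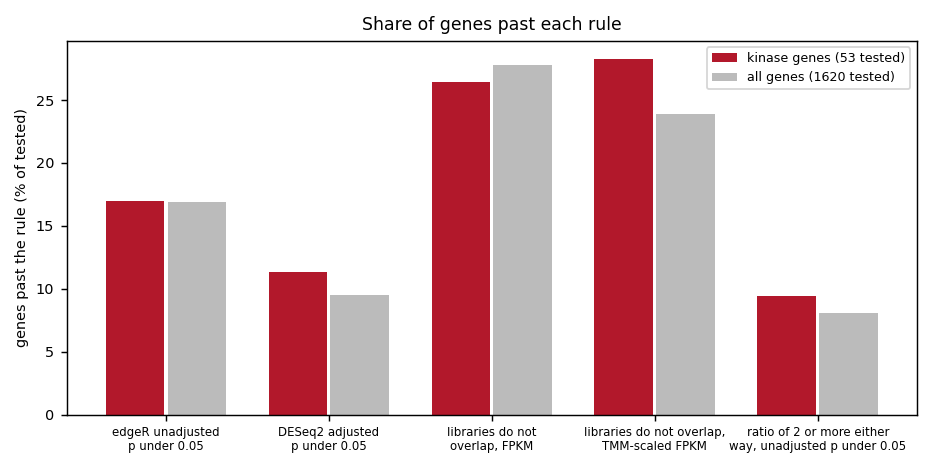
Bars give the percentage of tested genes past each of 5 rules, for the kinase genes (red, 53 tested) and for all genes of the table (grey, 1620 tested). The pairs of bars are close in height under each rule, with 17.0% against 16.9% at an unadjusted p under 0.05.

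Most kinase genes differed little, with a median size of the log2 fold change of 0.25, against 0.31 over all genes. The log2 fold changes ran between -1.66 (PLK3-like) and 1.21 (skp2), 41 of the 53 were under 0.5 in size, and the median standard error was 0.24. The control libraries were the more spread out. After TMM scaling, the within-group SD of log2(FPKM + 0.5) was larger in the control group for 41 of the 53 genes. The medians were 0.155 in the transport group and 0.278 in the control group. Over all genes the medians were 0.181 in the transport group and 0.306 in the control group.

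**Figure D2:**
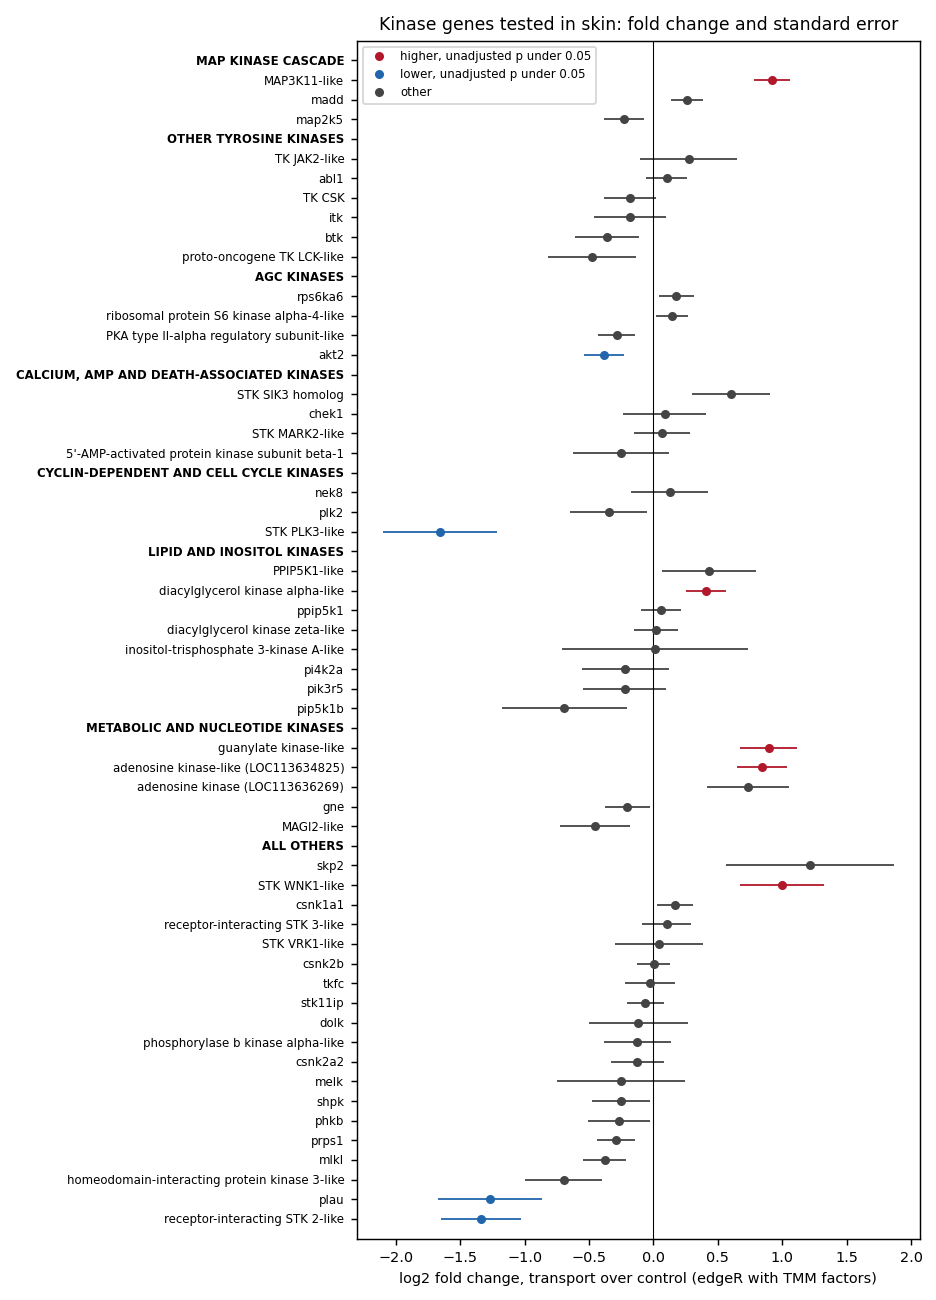
Points give the log2 fold change of the tested kinase genes, 1 of which is not shown, transport over control, by edgeR with TMM factors, and bars give 1 standard error to each side. Genes are grouped by kind of kinase (TK, tyrosine kinase; STK, serine/threonine kinase), and red and blue mark the 5 genes higher and the 4 genes lower at an unadjusted p under 0.05, between 1.00 (WNK1-like) and -1.66 (PLK3-like).

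Among the MAP kinase cascade genes, which relay stress and growth signals in successive phosphorylation steps, 3 of 4 could be tested. The unadjusted threshold was passed by 16.9% of all genes and by 1 of these 3. It was LOC113635472, a MAP kinase kinase kinase 11-like gene (scaffold NW_020848200.1, positions 4081403 to 4117190, minus strand). In mammals this kinase, also called MLK3, lies upstream of the JNK pathway. It stood at 3.84, 3.21 and 3.52 FPKM in the transport libraries, against 0.997, 1.67 and 1.92 FPKM in the control libraries. Every transport library was above every control library, and the means were 3.53 ± 0.316 FPKM under transport and 1.53 ± 0.479 FPKM in the control (SD, n = 3 each). The log2 fold change was 0.92 (SE 0.14), or 1.89-fold, with an adjusted p of 0.0525 in edgeR's quasi-likelihood test, the smallest of any kinase gene.

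Whether this MAP3K11-like gene was called depended on the tool and on single libraries. DESeq2 gave an adjusted p of 9.4e-07, and limma one of 0.126. In edgeR it was 0.0383 without control replicate 3, 0.0479 when the filter was raised to a mean of 1 FPKM, and as high as 0.346 with another library left out. The log2 fold change itself stayed between 0.83 and 0.99 over the 6 fits that leave out 1 library.

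The other cascade genes moved less. The gene madd, which encodes a partner protein of MAP kinase signalling and of TNF receptor 1, had 9.24, 7.04 and 7.91 FPKM under transport against 4.27, 5.66 and 6.31 FPKM in the control. These libraries do not overlap, but the log2 fold change was 0.26 (SE 0.12) with an adjusted p of 0.334 in edgeR's quasi-likelihood test. The gene map2k5, the MAP kinase kinase of the ERK5 branch, had a log2 fold change of -0.23 (SE 0.16).

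The table also annotates genes to the MAPK signaling pathway of KEGG, and 49 of these are not kinase genes by the rule. Of the 35 that could be tested, 0 were higher and 5 were lower (14.3%) at an unadjusted p under 0.05. Of all genes 7.72% were higher and 9.14% were lower, together 16.9%. These 35 genes had a median log2 fold change of -0.22, against -0.02 over all genes. By edgeR's quasi-likelihood test and by limma 0 of them had an adjusted p under 0.05, and by DESeq2 4 did, all lower, where 9.51% of all genes did. The 5 lower genes were relb, a subunit of NF-kappa-B, grasp, and 3 interleukin-1 beta-like genes, which share a description and so may share reads. Of the 5, the interleukin-1 beta-like LOC113635103 had a log2 fold change of -2.31 (SE 0.52) and relb one of -1.06 (SE 0.25). Their adjusted p values were 0.128 and 0.131 in edgeR's quasi-likelihood test, and 6.2e-04 and 0.00731 in DESeq2. The gene of smallest p among those with a positive fold change was kitlg, which encodes the kit ligand for a receptor tyrosine kinase of pigment and mast cells. It had 10.7, 8.51 and 9.33 FPKM under transport and 1.75, 6.74 and 5.26 FPKM in the control, without overlap. Its log2 fold change was 0.82 (SE 0.35), with an adjusted p of 0.302 in edgeR's quasi-likelihood test. The next was traf6, an adapter of Toll-like receptor signalling, with a log2 fold change of 0.30 (SE 0.18). For the PI3K-Akt pathway the only gene tested outside the kinase list was pdgfrl, with a log2 fold change of -0.63.

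**Figure D3:**
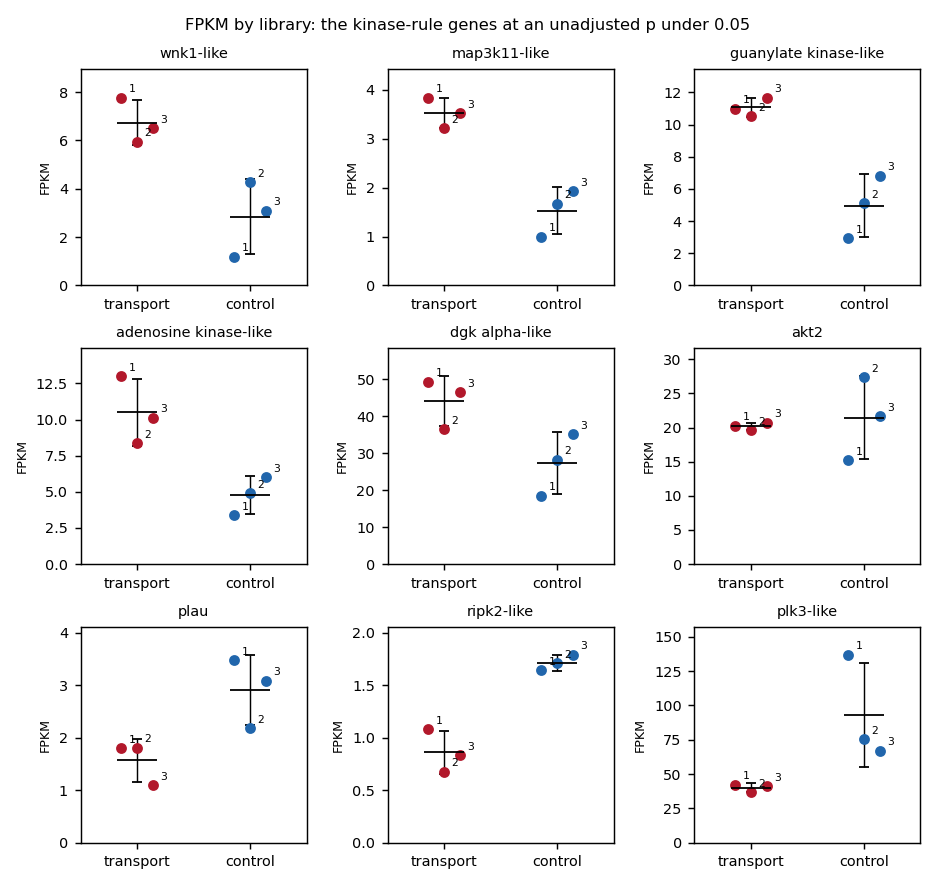
Each panel shows the FPKM of 1 of the 9 genes at an unadjusted p under 0.05 in the 3 transport libraries (red) and the 3 control libraries (blue), numbered by replicate, with the mean as a line and 1 SD as a bar. Transport lies wholly above control for the WNK1-like, MAP3K11-like, guanylate kinase-like, adenosine kinase-like and diacylglycerol kinase alpha-like genes and wholly below it for plau and the RIPK2-like and PLK3-like genes, while the akt2 libraries overlap.

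The metabolic and nucleotide kinases held 2 of the 5 higher genes, out of 5 tested, where 7.72% of all genes were higher. Their median log2 fold change was 0.73, against -0.02 over all genes, and 2 of the 5 are adenosine kinase genes. The words that set this group left out prps1, for a ribose-phosphate pyrophosphokinase, and the sedoheptulokinase gene shpk. Those genes had log2 fold changes of -0.29 (SE 0.15) and -0.25 (SE 0.22), so the group median does not stand for all metabolic kinases. LOC113634825 encodes an adenosine kinase-like enzyme (scaffold NW_020848164.1, positions 668360 to 675186, plus strand). Adenosine kinase turns adenosine into AMP and so sets how much adenosine a tissue holds. It had 13.0, 8.36 and 10.1 FPKM in the transport libraries and 3.38, 4.91 and 6.01 FPKM in the control libraries. The groups do not overlap, and the means were 10.5 ± 2.34 FPKM under transport and 4.77 ± 1.32 FPKM in the control (SD, n = 3 each). The log2 fold change was 0.84 (SE 0.19), with an adjusted p of 0.128 in edgeR's quasi-likelihood test and 0.00362 in DESeq2.

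A second adenosine kinase gene lies on another scaffold. This gene, LOC113636269 (NW_020848202.1, positions 2042044 to 2051531, plus strand), had 11.7, 8.65 and 13.0 FPKM under transport against 4.65, 6.43 and 4.72 FPKM in the control. Its groups do not overlap either. Its log2 fold change was 0.73 with a larger SE of 0.32, and it did not pass the unadjusted threshold (adjusted p = 0.311, edgeR). No source used here says how reads that fit both genes were assigned, so the 2 values may not be independent.

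The guanylate kinase-like LOC113636555 (scaffold NW_020848212.1, positions 1410097 to 1425601, plus strand) showed a similar difference. Guanylate kinase phosphorylates GMP to GDP, a step in making GTP. It had 11.0, 10.5 and 11.7 FPKM in the transport libraries, which were close together, and 2.93, 5.12 and 6.83 FPKM in the control libraries. The fitted log2 change was 0.89 (SE 0.22), with an adjusted p of 0.14 in edgeR's quasi-likelihood test and 0.00324 in DESeq2. A further guanylate kinase-like gene, LOC113635323, was too low to test, with 0 counts in all transport libraries and 0, 13 and 14 counts in the control libraries. In this group gne, which makes the precursor of sialic acid, had a log2 fold change of -0.20 (SE 0.17), and the MAGI2-like gene, a scaffold protein that carries a guanylate kinase-like domain, had -0.45 (SE 0.27).

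Serine/threonine kinases outside the named families gave the remaining higher protein kinase. LOC113636167 encodes a WNK1-like kinase (scaffold NW_020848201.1, positions 3156486 to 3173468, plus strand), and in mammals WNK1 controls cation-chloride cotransporters in response to chloride and cell volume. It had 7.77, 5.95 and 6.49 FPKM under transport and 1.19, 4.26 and 3.09 FPKM in the control. The groups do not overlap, and control replicate 1 was the lowest. Its log2 fold change was 1.00 (SE 0.32), with an adjusted p of 0.21 in edgeR's quasi-likelihood test and 0.0605 in DESeq2. Without control replicate 1 it was 0.72, and without transport replicate 1 the gene missed the unadjusted threshold at a log2 fold change of 0.92.

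All 8 lipid and inositol kinase genes were tested. At an unadjusted p under 0.05, 7.72% of all genes were higher, and 1 of these 8 was. It was LOC113635256, a diacylglycerol kinase alpha-like gene (scaffold NW_020848185.1, positions 184089 to 234644, plus strand). This enzyme turns the messenger diacylglycerol into phosphatidic acid and so damps protein kinase C and Ras signalling. It was among the most abundant kinase genes, with 49.3, 36.5 and 46.5 FPKM in the transport libraries against 18.5, 28.3 and 35.2 FPKM in the control libraries. The groups come close but do not overlap. The fitted log2 change was 0.41 (SE 0.16), with an adjusted p of 0.262 in edgeR's quasi-likelihood test. The unadjusted threshold was missed without control replicate 1, control replicate 2, transport replicate 1 or transport replicate 3, at log2 fold changes between 0.34 and 0.39.

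The other lipid kinases showed wide control groups. The gene pip5k1b, whose enzyme makes phosphatidylinositol 4,5-bisphosphate, had 6.17, 5.77 and 6.58 FPKM under transport, within the control values of 2.50, 7.23 and 16.6 FPKM. The gene pi4k2a, whose enzyme makes phosphatidylinositol 4-phosphate, had 4.72, 3.99 and 3.41 FPKM under transport and 1.97, 3.40 and 6.59 FPKM in the control. In both genes the control libraries span the transport libraries, with control replicate 1 lowest and control replicate 3 highest. For pip5k1b the log2 fold change was -0.69 (SE 0.49), but -1.06 without control replicate 1 and 0.00 without control replicate 3. The diacylglycerol kinase zeta-like gene had a log2 fold change of 0.02 (SE 0.17). The genes LOC113636160 and ppip5k1, which share a description as makers of inositol pyrophosphates and may share reads, had 0.43 (SE 0.36) and 0.06 (SE 0.16).

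**Figure D4:**
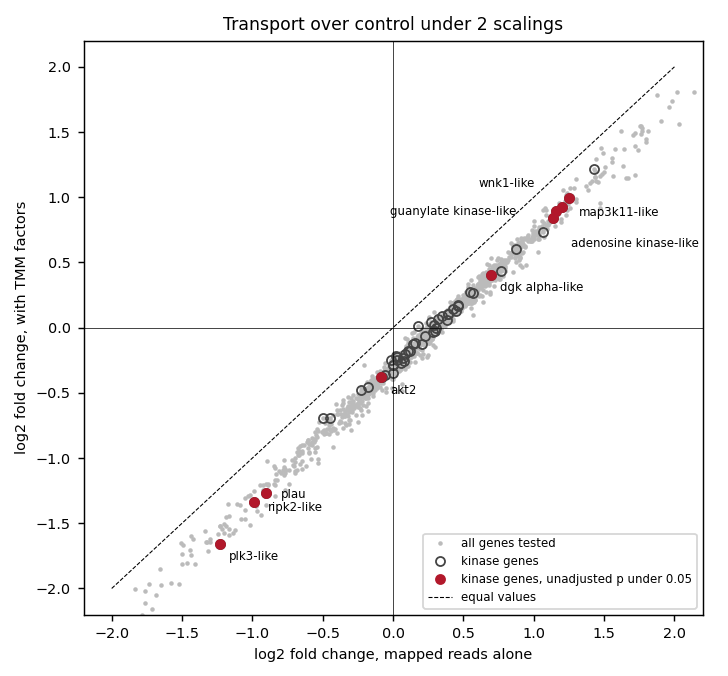
Each point is a tested gene, with its log2 fold change, transport over control, from mapped reads alone on the horizontal axis and with TMM factors on the vertical axis; grey points are all genes, open circles kinase genes and red points the 9 kinase genes at an unadjusted p under 0.05, and genes beyond the frame are not drawn. The cloud lies below the line of equal values because the TMM factors lowered log2 fold changes by a median of 0.30, and 16 kinase genes between the axes change sign.

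Of the genes that were lower in the transport group, the polo-like kinase PLK3-like gene differed by the most. LOC113634325 (scaffold NW_020847771.1, positions 2238094 to 2244037, minus strand) had 42.4, 36.6 and 41.2 FPKM under transport against 137, 75.3 and 66.8 FPKM in the control. In mammals PLK3 is an immediate early gene linked to DNA damage and osmotic stress. The transport libraries lay close together and below every control library, of which control replicate 1 was far the highest. The means were 40.1 ± 3.06 FPKM under transport and 93.0 ± 38.2 FPKM in the control (SD, n = 3 each), and the log2 fold change was -1.66 (SE 0.44), with an adjusted p of 0.168 in edgeR's quasi-likelihood test and 0.00628 in DESeq2. Without control replicate 1 the log2 fold change was -0.97, still past the unadjusted threshold. Its relative plk2 had 3.46, 4.10 and 3.90 FPKM under transport against 3.97, 4.42 and 2.98 FPKM in the control, with overlap and a log2 fold change of -0.35 (SE 0.30). The third tested gene that the description words placed in the cell cycle group was nek8, for a kinase of primary cilia. Its log2 fold change was 0.12 (SE 0.30).

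The receptor-interacting kinases act in innate immune and death signalling, and 2 of them could be tested. The difference between those 2 was not itself tested. LOC113636462, a RIPK2-like gene (scaffold NW_020848206.1, positions 451926 to 464030, plus strand), encodes the kinase that carries signals of the NOD1 and NOD2 receptors to NF-kappa-B in mammals. It had 1.08, 0.677 and 0.833 FPKM in the transport libraries and 1.64, 1.71 and 1.79 FPKM in the control libraries. The groups do not overlap. The control libraries were the closer ones in FPKM. After TMM scaling, the SD of log2(FPKM + 0.5) was 0.159 in the transport group and 0.188 in the control group. The added 0.5 weighs on such SDs in a gene this low, so they do not settle which group was closer after scaling. The fitted log2 change was -1.34 (SE 0.31), with an adjusted p of 0.131 in edgeR's quasi-likelihood test and 0.00101 in DESeq2, and it stayed between -1.50 and -1.16 with 1 library left out. The gene rests on 84 to 228 counts per library. The RIPK3-like LOC113635479, whose mammalian counterpart starts necroptosis, had 21.9, 20.0 and 20.4 FPKM under transport against 10.1, 21.8 and 15.7 FPKM in the control, and a log2 fold change of 0.10 (SE 0.19). The gene mlkl, which encodes the effector of necroptosis, had 31.5, 36.6 and 35.0 FPKM under transport and 27.4, 45.3 and 36.1 FPKM in the control. These overlap, and the log2 fold change was -0.38 (SE 0.17) with an adjusted p of 0.318 in edgeR's quasi-likelihood test.

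The protease gene plau, a member by its name alone (scaffold NW_020848202.1, positions 1983694 to 1988063, plus strand), had 1.80, 1.81 and 1.10 FPKM under transport and 3.48, 2.18 and 3.08 FPKM in the control. Urokinase cleaves plasminogen to plasmin and takes part in wound healing. The groups do not overlap, and the log2 fold change was -1.27 (SE 0.40), with an adjusted p of 0.21 in edgeR's quasi-likelihood test and 0.0415 in DESeq2. Leaving out control replicate 1 gave -0.87 and leaving out transport replicate 3 gave -1.06, and in both fits plau missed the unadjusted threshold.

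Among the AGC kinases, the family of the cAMP-dependent kinases, Akt and the S6 kinases, 4 of 7 were tested. At an unadjusted p under 0.05, 1 of these 4 was lower, where 9.14% of all genes were. The gene akt2, whose product carries insulin signals to glucose uptake (scaffold NW_020848133.1, positions 489483 to 504145, minus strand), had 20.3, 19.6 and 20.7 FPKM in the transport libraries against 15.2, 27.4 and 21.6 FPKM in the control libraries. The control libraries lie on both sides of the transport libraries in FPKM. Its log2 fold change was -0.38 (SE 0.16) with TMM factors, with an adjusted p of 0.29 in edgeR's quasi-likelihood test. It was -0.09 with mapped reads alone and -0.24 without control replicate 2, and the unadjusted threshold was missed in 11 of the 17 alternative fits. The ribosomal S6 kinase genes rps6ka6 and the rps6ka4-like LOC113634161 had log2 fold changes of 0.18 (SE 0.13) and 0.14 (SE 0.13). The PKA type II-alpha regulatory subunit-like gene had -0.28 (SE 0.14).

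All 6 non-receptor tyrosine kinase genes were tested, and 0 passed the unadjusted threshold in edgeR, against 16.9% of all genes. The 6 include the T and B cell kinases LCK-like, itk and btk. The LCK-like gene LOC113636643 had 14.8, 11.3 and 12.5 FPKM under transport and 8.17, 10.6 and 26.6 FPKM in the control. The gene itk had 19.3, 11.0 and 16.2 FPKM under transport and 9.76, 11.3 and 22.2 FPKM in the control. The gene btk had 6.53, 4.30 and 4.83 FPKM under transport and 4.36, 4.10 and 7.81 FPKM in the control. In these 3 genes the groups overlap, and control replicate 3 held the highest value of the 6 libraries.

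The gene of smallest p in this group was btk, with a log2 fold change of -0.36 (SE 0.25) and an adjusted p of 0.483 in edgeR's quasi-likelihood test. After TMM scaling, 5 of the 6 genes were highest in control replicate 3, as were 34.0% of the tested kinase genes and 21.2% of all genes. The gene pik3r5, a regulatory subunit of the PI3-kinase gamma of leukocytes, had 17.2, 10.4 and 13.6 FPKM under transport and 6.63, 11.7 and 22.3 FPKM in the control, the same order of libraries as itk within each group. Summed with LCK-like, itk and btk, a set chosen after the values were seen, it gave 57.9, 37.0 and 47.0 FPKM in the transport libraries and 28.9, 37.7 and 79.0 FPKM in the control libraries. The lowest and the highest sum both belong to the control group. The LCK-like gene had a log2 fold change of -0.48 (SE 0.34) over all libraries.

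The JAK2-like gene LOC113634259, a kinase of cytokine receptors, had 18.0, 8.67 and 14.7 FPKM under transport and 5.77, 6.44 and 16.2 FPKM in the control. Control replicate 3 stood among the transport libraries and the other control libraries below them, and the log2 fold change was 0.27 (SE 0.38). The gene abl1 had a log2 fold change of 0.10 (SE 0.16) and the CSK gene, whose product restrains Src-family kinases, -0.18 (SE 0.20).

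**Figure D5:**
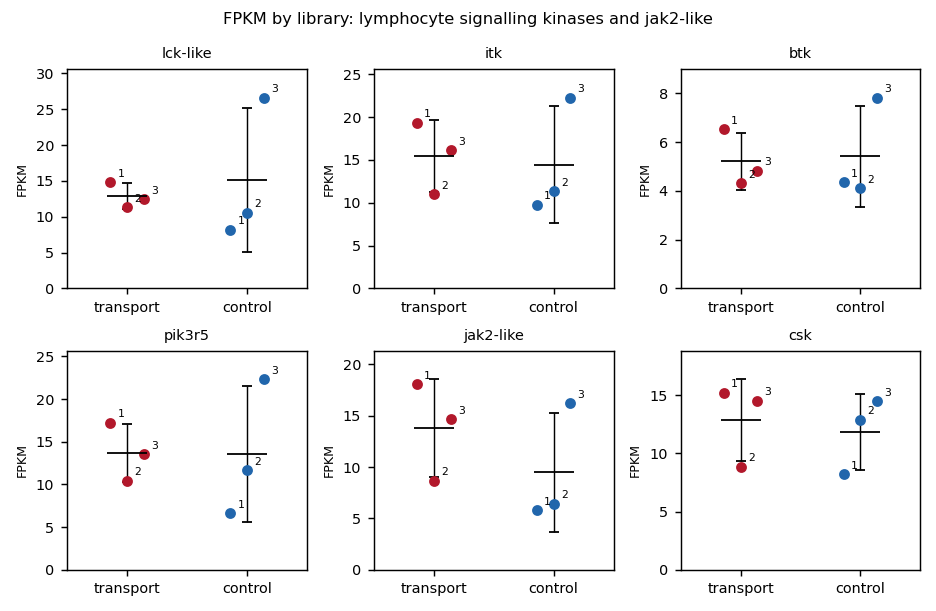
Each panel shows the FPKM of 1 gene, LCK-like, itk, btk, pik3r5, JAK2-like or CSK, in the 3 transport libraries (red) and the 3 control libraries (blue), numbered by replicate, with the mean as a line and 1 SD as a bar. For LCK-like, itk, btk and pik3r5 control replicate 3 is the highest of the 6 libraries, at 26.6, 22.2, 7.81 and 22.3 FPKM, and the groups overlap in all 6 panels.

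The calcium, AMP and death-associated kinases, a group that by its words also holds the checkpoint kinase gene chek1, had 4 of 7 genes tested. Of these, 0 passed the unadjusted threshold in edgeR, against 16.9% of all genes. The smallest p was that of the SIK3 gene LOC113635949, a salt-inducible kinase of the AMPK family, with 2.83, 4.98 and 3.78 FPKM under transport against 1.41, 2.95 and 1.93 FPKM in the control. These overlap through control replicate 2 alone, and the log2 fold change was 0.60 (SE 0.30), with an adjusted p of 0.365 in edgeR's quasi-likelihood test. The gene passed the unadjusted threshold in 7 of the 17 alternative fits. The MARK2-like gene, chek1 and the AMPK beta-1 subunit gene had log2 fold changes of 0.07 (SE 0.22), 0.09 (SE 0.32) and -0.25 (SE 0.37).

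The most abundant kinase gene was csnk1a1, which encodes casein kinase I alpha, a constitutive kinase of Wnt signalling. It had 116, 93.7 and 110 FPKM in the transport libraries and 54.9, 80.1 and 97.1 FPKM in the control libraries. The groups overlap through control replicate 3, and the log2 fold change was 0.17 (SE 0.14), with an adjusted p of 0.569 in edgeR's quasi-likelihood test. The gene csnk2b, the regulatory subunit of casein kinase II, had 48.3, 36.3 and 42.3 FPKM under transport and 25.6, 38.4 and 38.6 FPKM in the control. Its log2 fold change was 0.00 (SE 0.13).

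Among the rest, hipk3-like, a gene for a nuclear kinase that binds homeodomain proteins, had 3.10, 3.11 and 2.84 FPKM under transport and 2.34, 3.07 and 6.96 FPKM in the control. Control replicate 3 was by far the highest. Over all libraries the log2 fold change was -0.69 (SE 0.30), and without control replicate 3 it was -0.27. The F-box gene skp2 had the largest positive log2 fold change, 1.21, but with an SE of 0.65, and its 2.60, 0.876 and 1.88 FPKM under transport overlap the 0.163, 0.570 and 1.26 FPKM of the control. Glycogen breakdown is switched on by phosphorylase kinase, and its subunit genes phkb and the alpha-like LOC113635167 had log2 fold changes of -0.27 (SE 0.24) and -0.12 (SE 0.26).

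The 16 kinase genes too low to test included both receptor kinases of the list. The word rule misses receptor genes described without the word, such as the vascular endothelial growth factor receptor kdr-like LOC113635850, which was tested. That gene had 3.41, 7.15 and 5.10 FPKM under transport and 3.44, 5.63 and 2.29 FPKM in the control, a log2 fold change of 0.13 (SE 0.44). The receptor tyrosine kinase gene ret had 36, 8 and 8 counts in the transport libraries and 0, 46 and 13 counts in the control libraries, and the erbB-4-like gene had 4, 0 and 0 counts under transport and 0 in every control library. The gene prkca, for protein kinase C alpha, had 88, 116 and 176 counts under transport and 18, 109 and 131 counts in the control. The wee1-like gene, for a kinase that holds back entry into mitosis, had 53, 6 and 42 counts under transport and 10, 0 and 0 counts in the control. In the fit without a filter, 14 of the 16 low genes could be tested, and 0 had an unadjusted p under 0.05 in edgeR.

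Of these low genes, 2 had no counts in any library, the pim-2-like gene and the CDK5 activator gene, and 6 had none in 1 of the groups. The DCLK3-like gene had 19 counts in control replicate 1 and 0 in every other library, and the JIP1-like gene had 4 in control replicate 3 and 0 elsewhere. The pim-1-like and PKA catalytic subunit-like genes each had 4 counts in transport replicate 1 and 0 elsewhere. The erbB-4-like gene and the guanylate kinase-like LOC113635323, given above, make up the 6.

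Phosphatases remove the phosphate groups that kinases add. Their genes were chosen by that word in the description. The word also takes in regulatory subunits, such as ppp1r10, and genes described as pyrophosphatases or diphosphatases, such as nudt5 and nudt7. Of the 39 phosphatase genes so chosen in the table, 34 could be tested. At an unadjusted p under 0.05, 3 were higher and 4 were lower in the transport group (20.6%, against 16.9% of all genes), and their median log2 fold change was -0.03. By edgeR's quasi-likelihood test and by limma 0 had an adjusted p under 0.05. By DESeq2 2 higher and 3 lower ones of the 34 did, where 9.51% of all genes did. The gene nearest to a call in edgeR was inpp5f, which encodes the inositol phosphatase SAC2, an enzyme that dephosphorylates phosphatidylinositol 4-phosphate. It had 3.35, 2.71 and 3.18 FPKM under transport and 0.876, 1.67 and 1.48 FPKM in the control. The groups do not overlap, and the log2 fold change was 0.91 (SE 0.17). The adjusted p was 0.0749 in edgeR's quasi-likelihood test and 1.2e-04 in DESeq2. On the other side, the catalytic subunit of protein phosphatase 1 beta (LOC113635500) had 76.7, 79.0 and 80.9 FPKM under transport and 70.9, 109 and 99.5 FPKM in the control. Its FPKM overlap, and its log2 fold change was -0.54 (SE 0.14). Its adjusted p was 0.159 in edgeR's quasi-likelihood test, 0.00188 in DESeq2 and 0.607 in limma. With mapped reads alone its log2 fold change was -0.24.

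For the 9 kinase-rule genes past the unadjusted threshold, the sign of the log2 fold change was the same in all 17 alternative fits. These fits reuse the libraries from which the 9 genes were picked, so they give no separate support. The exact two-sided permutation test on log2(FPKM + 0.5) gave p = 0.1, the smallest that 3 against 3 libraries allow, for the 8 genes whose FPKM do not overlap. That p follows from the lack of overlap, which 27.8% of all tested genes also showed. The MAP3K11-like, adenosine kinase-like, guanylate kinase-like, RIPK2-like and PLK3-like genes passed the unadjusted threshold in each of the 6 fits that leave out 1 library. Lower genes numbered 4 over all libraries, but 7 when control replicate 3 was left out (13.2%, against 12.7% of all genes) and 2 when transport replicate 3 was (3.77%, against 4.57% of all genes).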

How the data were processed

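Skin RNA-seq of 6 libraries (3 transport, 3 control) was analysed from the deposited gene table, groups being taken from the sample labels. The authors aligned reads with HISAT and assembled and quantified transcripts with StringTie, which gave the deposited FPKM values and read counts per gene; no source used here gives versions, genome build or strandedness, and the study names a Homo sapiens reference in its methods but the yellow catfish genome in its results. Scaffold positions are as deposited, and gene descriptions name Tachysurus fulvidraco for nearly all genes. The table held 2452 rows, less 1 that was incomplete. Left unused were 12 per-sample columns whose names match no sample label. Columns with the authors' own fold changes and p-values were not used either.

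Testing took genes whose FPKM averaged 0.5 or more, with edgeR 4.0.16 in R 4.3.3 (quasi-likelihood test on the counts, condition only, TMM factors, Benjamini-Hochberg adjustment over all tested genes). Library sizes were the mapped reads stated by the study. Alternatives were DESeq2 1.42.0, limma 3.58.1 on log2(FPKM + 0.5, 0.1 or 1), no filter or a mean of 1 FPKM, no TMM or median-ratio factors, table sums as library sizes, robust dispersions, a replicate block, each library left out and enzyme descriptions only; 2 were added after seeing the data. Scripts were tested on simulated data. No 2 libraries of the same group agreed within sampling noise.

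Named were every kinase gene at an unadjusted p under 0.05, the 5 of highest mean FPKM, the one of smallest p in groups without these, genes at 0 counts in 1 group, and the 2 phosphatases and pathway genes of smallest p in each direction; further names were picked with their values in view. Groups were set by words of the description, in a fixed order; the receptor-interacting kinase 3-like gene was kept out of the MAP kinase group, where a word had placed it. The members and lists were chosen with earlier results of these data known. For 1 tested kinase gene the values are not reported here.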

Additional observations from a re-analysis of the deposited data

How the results depend on the processing

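The count of kinase genes with an adjusted p under 0.05 was 0 by edgeR and 6 (11.3%) by DESeq2, which called 9.51% of all genes. All 6 were among the 9 genes past the unadjusted threshold. The count was 1 with a mean of at least 1 FPKM, where 10 of 1459 genes were called. With 1 library left out it was 0 to 1, the 1 without control replicate 3, where 65 of 1620 genes were called. The count of higher genes at an unadjusted p under 0.05 was 5 (9.43%, against 7.72% of all genes). Without TMM factors it was 8 (15.1%, against 13.9% of all genes). By limma it was also 8 with a pseudocount of 0.5 or of 1, where 259 and 263 of 1620 genes were higher. With 1 library left out it was 4 to 7. The 4 (7.55%) came without control replicate 1, transport replicate 1 or transport replicate 3, where 8.52%, 5.19% and 4.75% of all genes were higher. The 7 (13.2%) came without control replicate 3, where 195 of 1620 genes were higher. The count of lower genes was 4 (7.55%, against 9.14% of all genes), and it was 2 of 42 over enzyme descriptions only. With 1 library left out it was 2 to 7 (3.77% to 13.2%), and the shares of all genes were 4.57% to 12.7%. Both directions together gave 9 (17.0%, against 16.9% of all genes), and 6 to 14 with 1 library left out. The 6 (11.3%) came without transport replicate 3, where 9.32% of all genes passed. The 14 (26.4%) came without control replicate 3, where 24.8% of all genes passed. The median log2 fold change of the kinase genes was -0.06, but 0.21 without TMM factors and 0.25, 0.26 and 0.21 by limma, which uses FPKM without TMM, with pseudocounts of 0.5, 0.1 and 1; with 1 library left out it was -0.13 to 0.00. A log2 ratio of at least 1 in size with an unadjusted p under 0.05 took 5 kinase genes, and 3 with edgeR's log2 fold change in place of the ratio, a choice made after seeing the data. The direction of csnk2b, whose log2 fold change was 0.00, turned in 6 fits: -9.1e-04 with median-ratio factors, -0.0032 with the replicate block, -8.9e-04 in DESeq2, -0.0067 without control replicate 1, -0.02 without control replicate 3 and -0.07 without transport replicate 1, its values with 1 library left out running between -0.0730 and 0.0741.

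The deviations of same-numbered libraries correlated at -0.17, 0.08 and 0.10, and not every library correlated best with its own number, so the numbers were not taken as pairs. A replicate block gave 0 adjusted calls over all genes and a median log2 fold change of -0.06 over the kinase genes. At an unadjusted p under 0.05 it gave 6 higher and 3 lower kinase genes (11.3% and 5.66%). The shares of all genes in that fit were 6.48% and 6.79%. Of the 9 genes, 7 passed that threshold.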

Other observations

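Among the phosphatase genes, 2 neighbouring genes for regulatory subunit 3C-B of protein phosphatase 1, which directs the phosphatase to glycogen, lay on opposite sides. LOC113633959 had 19.8, 12.7 and 14.4 FPKM in the transport libraries against 3.86, 1.40 and 7.23 FPKM in the control libraries, a log2 fold change of 1.59 (SE 0.54). LOC113633956 had 53.1, 46.2 and 53.0 FPKM under transport against 55.6, 54.3 and 71.4 FPKM in the control, a log2 fold change of -0.58 (SE 0.17). By edgeR's quasi-likelihood test their adjusted p values were 0.22 and 0.185, and in DESeq2 they were 0.0485 and 0.0368. With mapped reads alone the 2 genes had log2 fold changes of 1.90 and -0.26. The difference between them was not tested, and as genes that share a description they may share reads.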
